A study of Mus musculus with 24 samples.

Results

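The 10 genes described here encode the proteins that release, take up, store and extrude calcium in cardiomyocytes: Ryr2, Fkbp1b, Trdn, Casq2, Hrc, Jph2, Atp2a2, Pln, Slc8a1 and Camk2d. They were chosen by symbol, matched to the Ensembl identifiers of the full count table, and make up 10 of the 41388 Ensembl genes counted. Transcript levels were measured by RNA sequencing of a portion of the heart from 24 wild type male Balb/c mice (substrain BALB/cAnNCrl) aged 8 to 10 weeks at immunization. In the experimental autoimmune myocarditis (EAM) groups, mice received a peptide of the cardiac myosin heavy chain MyHC-α in supplemented complete Freund's adjuvant, once at the start and again a week later, with pertussis toxin at the start. Control mice received the same adjuvant with PBS in place of the peptide, and the same pertussis toxin, so that adjuvant and toxin were common to every heart, and untreated hearts were not analysed here. Hearts were taken at day 10 (D10), day 15 (D15) and day 21 (D21), with 4 EAM and 4 control hearts at each. The sequenced hearts were picked, as far as possible, for the presence of inflammation, so the EAM groups are not a random draw of immunized mice.

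With each beat, calcium that enters a cardiomyocyte through the L-type channel opens the ryanodine receptor on the adjoining sarcoplasmic reticulum, and the calcium released there makes the sarcomere contract. The calcium ATPase SERCA2 then pumps calcium back into the store under the brake of phospholamban, and the sodium-calcium exchanger of the surface membrane extrudes the rest. Junctophilin 2 holds both membranes together, triadin ties calsequestrin, the buffer of the store, to the release channel, and the kinase CaMKII adjusts channel and pump.

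The genes lie apart in the genome (GRCm38), on chromosomes 2 (Jph2), 3 (Casq2, Camk2d), 5 (Atp2a2), 7 (Hrc), 10 (Pln, Trdn), 12 (Fkbp1b), 13 (Ryr2) and 17 (Slc8a1). Promoter sequence from RefSeq (GRCm38.p6) was matched for 8 of the 10, all but Atp2a2 and Trdn. Short motifs of 4 kinds, for factors active in muscle, were searched on both strands from 250 bases before to 50 bases after each start. The E-box CANNTG was found for Casq2, Hrc, Jph2, Pln, Ryr2 and Slc8a1, and in 72.3% of all 32851 promoters of the same length. The GATA motif AGATAA was found for Pln and Slc8a1, and in 11.2% of all promoters. Neither the MEF2 motif CTANNNNTAG (3.69% of all promoters) nor the CArG box (1.63%) was found for any of the 8. The 250 bases before the start are shown 5′ to 3′ on the gene's own strand for the pair of genes whose levels were most alike across hearts (Casq2 and Jph2), for the gene with the largest fitted decrease at D15 (Hrc) and for the only gene that rose (Fkbp1b), with E-boxes in capitals.
Casq2 (chr3:102086165-102086414, plus strand): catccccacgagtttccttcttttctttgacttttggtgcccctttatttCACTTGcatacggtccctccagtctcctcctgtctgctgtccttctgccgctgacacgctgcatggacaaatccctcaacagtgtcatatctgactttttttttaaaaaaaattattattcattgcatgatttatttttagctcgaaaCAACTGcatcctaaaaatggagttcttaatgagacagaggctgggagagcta
Jph2 (chr2:163397994-163398243, minus strand): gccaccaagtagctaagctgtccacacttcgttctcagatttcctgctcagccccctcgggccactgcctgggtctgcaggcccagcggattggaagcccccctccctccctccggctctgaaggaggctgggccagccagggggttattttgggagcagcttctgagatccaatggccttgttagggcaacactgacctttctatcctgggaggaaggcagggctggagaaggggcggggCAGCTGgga
Hrc (chr7:45335019-45335268, plus strand): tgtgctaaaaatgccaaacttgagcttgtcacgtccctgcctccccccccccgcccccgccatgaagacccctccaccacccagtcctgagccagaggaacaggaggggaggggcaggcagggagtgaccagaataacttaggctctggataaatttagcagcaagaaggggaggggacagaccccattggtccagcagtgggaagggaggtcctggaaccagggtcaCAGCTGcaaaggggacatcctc
Fkbp1b (chr12:4841574-4841823, minus strand): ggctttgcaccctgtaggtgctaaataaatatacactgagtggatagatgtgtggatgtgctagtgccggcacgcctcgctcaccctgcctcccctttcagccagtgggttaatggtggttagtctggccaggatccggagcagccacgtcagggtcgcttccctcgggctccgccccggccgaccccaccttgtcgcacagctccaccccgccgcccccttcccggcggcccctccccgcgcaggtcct
Casq2 carries 2 E-boxes in this window and Hrc and Jph2 carry 1 each, whereas Fkbp1b carries none; these letters are a description and not a mapped binding site.

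The deposited values were raw read counts, with 15814863 to 24980864 reads per heart (median 19469782). Levels are given as counts scaled to library size (CPM) after TMM normalization, which rescales each library so that the bulk of genes does not shift. Ryr2, the cardiac ryanodine receptor through which the store releases calcium, was covered by 13274 to 43523 reads in a heart. Only Fkbp1b had few reads, 9 to 26 in a control heart. Groups within a day were compared by the quasi-likelihood test of edgeR, with p-values adjusted over all genes tested on that day, and a gene is said to have passed where its adjusted p was under 0.01; the error of a log2 fold change is its standard error.

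Cell type markers moved with disease and are given first, because whole heart tissue was sequenced: fewer cardiomyocytes and less RNA per cardiomyocyte cannot be told apart in these samples. Defining heart muscle genes were present in every library, and the summed level of 10 sarcomere genes was 24065 to 26671 CPM in D15 control hearts and 8089 to 14769 CPM in D15 EAM hearts. The summed level of 10 leucocyte markers was 445 to 508 CPM in D15 control hearts and 3151 to 4628 CPM in D15 EAM hearts, and Ptprc, the common leucocyte antigen CD45, rose by 3.98 ± 0.12 on the log2 scale at D15 (adjusted p = 1.39e-08). At D15, 9 of 9 leucocyte markers and 4 of 5 fibroblast markers tested rose, and 9 of 10 sarcomere genes and 4 of 4 endothelial markers fell. Among smooth muscle markers 1 of 4 fell at D15, and the 6 skeletal muscle markers summed to at most 3.08 CPM in a D15 heart, although Tnnt3, 1 of the 2 tested, rose (1.28 ± 0.34, adjusted p = 0.0066). The other skeletal muscle marker tested had a fitted change of −0.29 and did not pass. No marker on these lists passed at D10. At D21, 7 of 9 leucocyte markers and 3 of 5 fibroblast markers rose and 5 of 5 atrial markers fell, whereas no sarcomere, endothelial or smooth muscle gene passed; Ptprc changed by 1.35 ± 0.56 at D10 (adjusted p = 0.33) and by 2.58 ± 0.46 at D21 (adjusted p = 0.0075). The EAM heart 1 of D10 stood apart from its group, with 2910 CPM of leucocyte markers against 734 to 1423 in the other 3, and with 14618 CPM of sarcomere genes against 22972 to 24223. Atrial markers also differed, with 5 genes summing to 55.8 to 180 CPM in D21 EAM hearts and 1770 to 2789 CPM in D21 controls, and 4 of the 5 also passed lower between D15 and D21 in the fit of all hearts. At D10 the direction was opposite: EAM hearts held 583 to 2047 CPM and controls 209 to 507 CPM, and all 5 genes were without overlap and higher in EAM hearts (median log2 change 2.19), although none passed the adjusted test. At D15 the ranges overlapped, with D15 control heart 4 at 240 CPM, and from D10 to D15 the EAM effect on 3 of the 5 moved down (median −2.77 over the 5). Bmp10, a defining atrial gene, was at 0.0668 to 0.276 CPM in the D21 EAM hearts. Atrial marker levels thus differed with the group at D10 and at D21, and whatever set them cannot be told apart from the EAM effect on those days or in the changes between days. The D21 EAM libraries also carry another library code in the labels than the other 20 libraries.

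**Figure D1:**
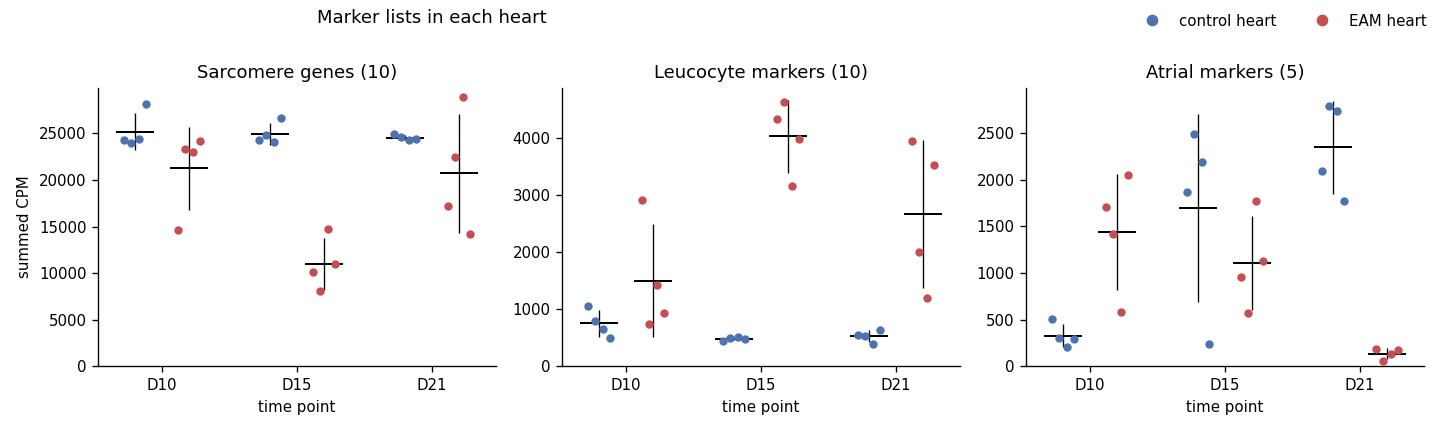
Summed CPM of the sarcomere genes, leucocyte markers and atrial markers in each heart. Each point is 1 heart, horizontal lines are group means and vertical lines are SD (n = 4). Sarcomere genes were low and leucocyte markers high in all 4 D15 EAM hearts, and atrial markers were close to 0 in the 4 D21 EAM hearts.

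In the 12 control hearts, levels per kilobase of exon set out the order of abundance. Length was that of all annotated exons of a gene merged, from 2566 bases for Hrc to 18807 for Slc8a1 and 22493 for Camk2d. Whether heart transcripts use all of them was not tested, so the order is approximate. Pln, which encodes phospholamban, and Atp2a2, which encodes SERCA2, were the most abundant, at 1806 ± 161 and 1711 ± 107 CPM per kilobase (SD, n = 12), and did not differ beyond their spread. Hrc, the histidine-rich calcium-binding protein of the store lumen, had 380 ± 26.9 CPM per kilobase, next to Casq2, cardiac calsequestrin, with 360 ± 21.9, and these also overlapped. Jph2 followed with 221 ± 16.5, Ryr2 with 65.2 ± 9.49 and Trdn with 42.4 ± 1.88 CPM per kilobase. The exchanger gene Slc8a1, at 13.4 ± 1.25 CPM per kilobase, and Camk2d, the main cardiac CaMKII gene, at 11.8 ± 0.734, came next, with ranges that overlapped. Fkbp1b, which encodes the small ryanodine receptor partner FKBP12.6, was lowest at 0.977 ± 0.227 CPM per kilobase. Ryr2 varied most among control hearts after Fkbp1b, with a coefficient of variation of 14.5% against 4.43% to 9.36% for the other 8 genes. Its lowest control value, 1315 CPM in D10 control heart 1, came from the heart that also had the lowest control level of the long titin transcript Ttn, at 2082 CPM. Among control hearts, none of the 10 genes passed between D15 and D10 or between D21 and D10, where 0.0784% and 2.64% of all genes passed (0 and 2 of the 10 at an unadjusted p under 0.05), and the fitted change closest to the limit was that of Pln at D21, −0.26 ± 0.07 (adjusted p = 0.0375). The atrial markers did move among controls, and 5 of 5 passed higher at D21 than at D10 (median log2 change 2.69). Between D15 and D10 none of these 5 passed, with a median of 2.33. The part of atrial signal in the control levels and changes of the 10 genes was not tested.

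**Figure D2:**
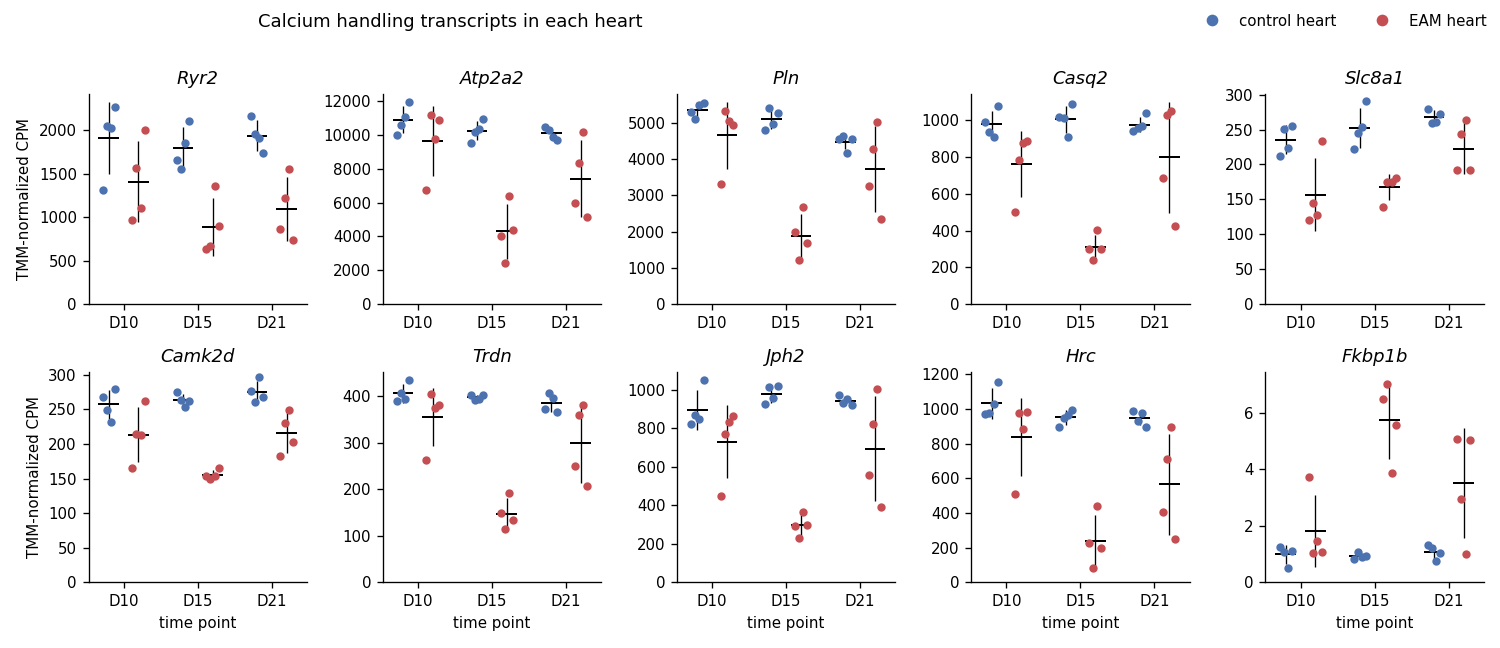
CPM of each of the 10 genes in each heart, by day. Each point is 1 heart, horizontal lines are group means and vertical lines are SD (n = 4). At D15 the EAM hearts lay wholly below the controls for 9 genes and wholly above them for Fkbp1b.

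At D10, none of the 10 genes passed the test, nor did any of the 15029 genes tested (0.00%). At an unadjusted p under 0.05 there was 1 of the 10, Slc8a1, against 15.2% of all genes. DESeq2, the likelihood ratio test and limma-voom also passed none of the 10. The fitted change was below 0 for 9 genes, from −0.60 for Slc8a1 to −0.19 for Atp2a2, with a median over the 10 of −0.30 against −0.01 for all genes. Slc8a1 measured 213, 251, 224 and 255 CPM in control hearts and 120, 145, 128 and 233 CPM in EAM hearts, so 3 EAM hearts lay below every control and the fourth among them (−0.60 ± 0.20, adjusted p = 0.33). The long titin transcript Ttn ranked the EAM hearts alike, at 1253, 2318, 1593 and 3531 CPM, against 2082 to 3840 CPM in controls. Its part in the Slc8a1 value was not tested. Casq2 was the only gene whose groups did not overlap, with control hearts at 988, 934, 909 and 1074 CPM and EAM hearts at 502, 784, 874 and 887 CPM (−0.37 ± 0.18, adjusted p = 0.33), and 3.75% of all genes were without overlap in that direction. EAM heart 1, the one rich in leucocyte markers, had the lowest value of its group for all 9 genes whose fitted change was below 0 and the highest for Fkbp1b, 3.71 CPM against 1.02 to 1.45 in the other 3. The part of the leucocyte signal in these values was not tested, and the difference in atrial markers between the D10 groups applies to each of them. An interval of 2 standard errors either way spanned −0.97 to 0.07 for Ryr2 and −0.67 to 0.29 for Atp2a2, so decreases of moderate size could not be told from none at D10.

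At D15, 9 of the 10 genes passed the test: 8 were lower in EAM hearts and Fkbp1b was higher. Of all 15693 genes tested, 31.2% passed lower and 33.3% higher, and 5 of the 10 passed lower by at least 2-fold where 12.9% of all genes did, and 1 higher where 18.1% did. For each of the 10 genes the EAM and control hearts did not overlap, which held for 35.9% of all genes with EAM lower and 34.5% with EAM higher. The median fitted change was −1.30 for the 10 genes and 0.02 for all genes, and −1.199 for the 10 sarcomere genes.

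The release channel had the smallest fitted decrease of the release unit. Ryr2 measured 1659, 1550, 1851 and 2099 CPM in control hearts and 637, 663, 1353 and 902 CPM in EAM hearts. All 4 EAM hearts lay under the lowest control, heart 3 being nearest to it (−0.97 ± 0.25, adjusted p = 0.0053). This call rested on most of the hearts: leaving out any one of control hearts 1, 3 and 4 or EAM hearts 1, 2 and 4 gave adjusted p-values of 0.0102 to 0.0198. Trdn, the triadin anchor, fell from 403, 393, 394 and 402 CPM in control hearts to 149, 116, 192 and 135 CPM in EAM hearts. The control hearts were nearly level and every EAM heart lay far below them (−1.39 ± 0.14, 2.62-fold lower, adjusted p = 1.79e-05).

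Fkbp1b moved the other way. Control hearts had 0.833, 1.06, 0.88 and 0.942 CPM, from 16 to 18 reads, and EAM hearts 6.49, 7.004, 3.88 and 5.55 CPM, from 92 to 200 reads. Every EAM heart thus stood well above every control, by 6.34-fold in the fit (2.66 ± 0.22, adjusted p = 6.40e-06). The hearts with the most Fkbp1b, 1 and 2, were also those with the most leucocyte markers (4331 and 4628 CPM), and heart 3, with the least, had the fewest (3151 CPM); the part of leucocytes in the rise was not tested. Fkbp1a, the closely related gene for FKBP12, stood at 207 to 229 CPM in control hearts and 220 to 288 CPM in EAM hearts and did not pass (0.20 ± 0.09, adjusted p = 0.066).

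Genes of the store lumen and of the junction had the largest fitted decreases. Hrc measured 895, 945, 966 and 995 CPM in control hearts and 225, 80.6, 439 and 199 CPM in EAM hearts. The EAM values spread widely, yet the highest remained under the lowest control (−1.97 ± 0.41, 3.93-fold lower, adjusted p = 0.0017). Jph2 had 926, 1016, 954 and 1018 CPM in control hearts and 294, 228, 367 and 300 CPM in EAM hearts (−1.68 ± 0.14, 3.21-fold lower, adjusted p = 5.95e-06). Casq2 had 1013, 1010, 906 and 1084 CPM against 298, 239, 403 and 300 CPM (−1.66 ± 0.15, 3.15-fold lower, adjusted p = 1.25e-05). In both genes EAM heart 2 was lowest and heart 3 highest, the same order as for the sarcomere genes (8089 and 14769 CPM).

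For the pump and its brake, the brake passed and the pump stood near the limit. Pln fell from 4794, 5410, 4969 and 5271 CPM in control hearts to 1987, 1221, 2670 and 1686 CPM in EAM hearts, with no overlap (−1.40 ± 0.27, 2.63-fold lower, adjusted p = 0.0011). Atp2a2 measured 9529, 10177, 10327 and 10904 CPM in control hearts and 4011, 2445, 6394 and 4388 CPM in EAM hearts. The groups did not overlap, but the fit missed the limit (−1.21 ± 0.37, adjusted p = 0.0144). Of the alternatives run, 9 put it past the limit, among them DESeq2 (adjusted p = 8.71e-07), limma-voom (adjusted p = 0.0018) and the fit without EAM heart 3 (adjusted p = 0.0011), and 11 did not. Pln lies within the larger gene Cep85l on the opposite strand, which had 5093 reads in all 24 libraries together, fewer than Pln had in any single one.

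Slc8a1 and Camk2d showed the smallest decreases and the least scatter. Slc8a1 had 222, 245, 253 and 291 CPM in control hearts and 140, 175, 175 and 181 CPM in EAM hearts (−0.56 ± 0.11, 1.47-fold lower, adjusted p = 0.0011). Camk2d had 276, 263, 254 and 262 CPM in control hearts and 154, 149, 153 and 166 CPM in EAM hearts (−0.72 ± 0.06, 1.65-fold lower, adjusted p = 6.80e-06). Unlike the other genes that fell, these were not highest in EAM heart 3, which had the most sarcomere signal of its group.

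**Figure D3:**
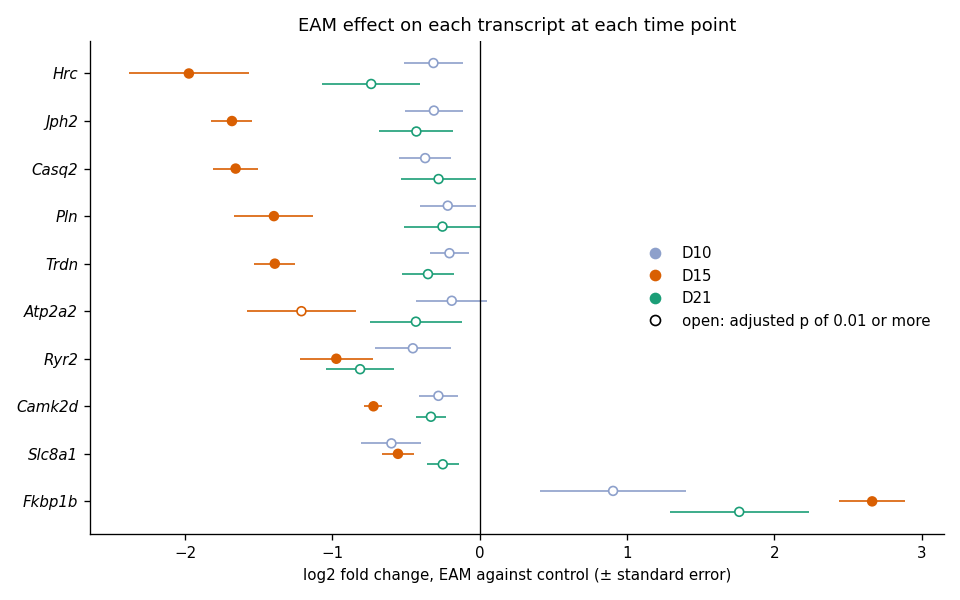
Fitted log2 fold change between EAM and control hearts for each gene at D10, D15 and D21, with bars of 1 standard error (4 against 4 hearts). Filled points passed the test (adjusted p under 0.01), which 9 genes did at D15 and none at D10 or D21.

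Because the sarcomere genes fell too, the comparison was repeated with each library scaled to the geometric mean of the 10 sarcomere genes, so that a value reads as level per unit of sarcomere transcript. This scaling moved the median change of all genes at D15 to 1.26, with 2.17% of genes passing lower and 72.7% higher, and the values below are relative to the sarcomere genes and not to the tissue. Hrc (−0.89 ± 0.24, adjusted p = 0.0037), Jph2 (−0.48 ± 0.13, adjusted p = 0.0036) and Casq2 (−0.46 ± 0.13, adjusted p = 0.0042) remained lower, now past the limit by less. Atp2a2 (−0.06 ± 0.14), Trdn (−0.19 ± 0.13), Pln (−0.23 ± 0.13) and Ryr2 (0.20 ± 0.15) did not pass. Slc8a1 passed in the opposite direction (0.70 ± 0.19, adjusted p = 0.0034), Camk2d had 0.53 ± 0.18 (adjusted p = 0.0132), and Fkbp1b stayed higher (3.95 ± 0.38, adjusted p = 6.81e-07). Over 9 refits, 1 with the replicate number as a block and 8 leaving out a heart each, Fkbp1b passed in 9, Hrc in 8, Slc8a1 in 6, Jph2 in 4 and Casq2 in 2. The 3 genes with the smallest decreases under TMM, Slc8a1, Camk2d and Ryr2, were those whose sign turned, and since the all-gene median moved up as well, this does not set them apart from other genes.

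**Figure D4:**
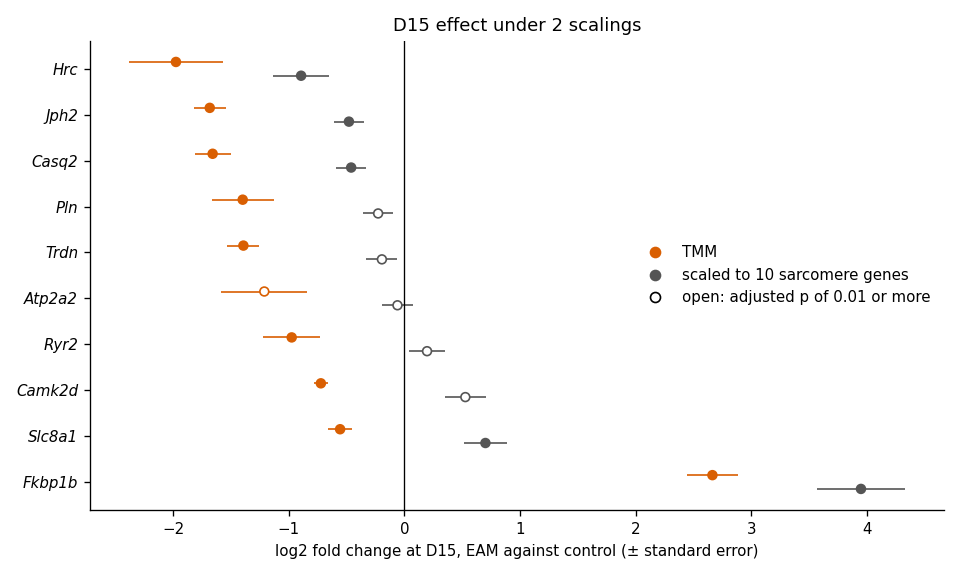
Fitted log2 fold change at D15 for each gene under TMM normalization and with libraries scaled to 10 sarcomere genes, with bars of 1 standard error (4 against 4 hearts). Filled points passed the test; Slc8a1 crossed from −0.56 to 0.70, while Hrc stayed below 0 at −0.89.

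At D21, none of the 10 genes passed the test, where 3.43% of all 15266 genes passed lower and 4.94% higher. At an unadjusted p under 0.05 there were 4 of the 10, against 46.9% of all genes; DESeq2 and the likelihood ratio test each passed 2 and limma-voom none. EAM hearts were uneven: heart 3, with the fewest leucocyte markers (1188 CPM) and the most sarcomere signal (28864 CPM), was close to the controls, and heart 4 was farthest from them for most genes. Ryr2 measured 2154, 1951, 1904 and 1734 CPM in control hearts and 865, 1221, 1554 and 732 CPM in EAM hearts, with no overlap (−0.81 ± 0.23, adjusted p = 0.0282). Ttn, the long titin transcript, was also lower, at 981 to 2485 CPM in EAM hearts and 3498 to 4094 CPM in controls (−1.28 ± 0.29, adjusted p = 0.0141), and its part in the Ryr2 value was not tested. Fkbp1b had 1.32, 1.2, 0.744 and 1.02 CPM in control hearts and 5.07, 2.94, 1.002 and 5.02 CPM in EAM hearts, where heart 3 lay among the controls (1.76 ± 0.47, adjusted p = 0.0238). Leaving out that heart put both genes past the limit (Ryr2 adjusted p = 0.0042, Fkbp1b adjusted p = 0.0011). Camk2d had 276, 260, 296 and 268 CPM against 182, 230, 249.1 and 203 CPM, again with no overlap (−0.33 ± 0.10, adjusted p = 0.0382).

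For the remaining genes at D21 the groups overlapped or nearly met. Hrc had 985, 931, 975 and 896 CPM in control hearts and 408, 709, 894 and 248.98 CPM in EAM hearts, so that heart 3 fell just short of the lowest control (−0.74 ± 0.33, adjusted p = 0.11). Casq2 had 942, 955, 968 and 1037 CPM against 686, 1027, 1051 and 424 CPM, with EAM hearts on both sides of the controls (−0.28 ± 0.25, adjusted p = 0.40). Jph2 showed the same spread, with EAM hearts from 390 to 1004 CPM around controls of 917 to 970 CPM (−0.43 ± 0.25, adjusted p = 0.20). EAM hearts ranged from 5138 to 10150 CPM for Atp2a2, 2340 to 5034 CPM for Pln, 207 to 382 CPM for Trdn and 192 to 263 CPM for Slc8a1, each overlapping the controls. Groups without overlap and with EAM lower made up 3 of the 10 genes and 18.7% of all genes. Relative to the sarcomere genes, Ryr2 was at −0.57 ± 0.09 (adjusted p = 0.0125) and Casq2 at −0.05 ± 0.13 (adjusted p = 0.81), and none of the 10 passed, where 0.413% of all genes did. On the same scale Ttn, 1 of the 10 sarcomere genes, was the only one of them that passed, at −1.04. The difference in atrial markers and in library code between the D21 groups applies to each of these values.

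Whether the EAM effect changed between days was tested in a fit of all 24 hearts. Between D10 and D15 it moved down for Jph2 (−1.42 ± 0.31, adjusted p = 0.0023), Casq2 (−1.34 ± 0.31, adjusted p = 0.0028), Trdn (−1.24 ± 0.23, adjusted p = 0.0018) and Pln (−1.23 ± 0.32, adjusted p = 0.0053), 4 of the 10 genes against 17.0% of all genes. For Slc8a1 the effects at D10 and D15 were alike in size, with a difference of −0.0047 ± 0.22 (interval −0.45 to 0.44). Between D15 and D21 the effect moved back up for Casq2 (1.40 ± 0.31, adjusted p = 0.0033), Jph2 (1.28 ± 0.31, adjusted p = 0.0060) and Trdn (1.06 ± 0.23, adjusted p = 0.0035), 3 of the 10 against 8.67% of all genes. Both comparisons use the D15 hearts, and the differences in atrial markers and library code between the D21 groups enter the change between D15 and D21. Ryr2 gave no change that passed, with 0.19 ± 0.37 between D15 and D21 (interval −0.56 to 0.93). With the replicate number as a block, 1 gene passed between D15 and D21. Leaving out single hearts gave 3 to 8 genes between D10 and D15, the 8 without D10 EAM heart 1 and 7 without D21 EAM heart 3, and 1 to 5 between D15 and D21, the 1 without D21 EAM heart 2 and the 5 without D15 EAM heart 3. Relative to the sarcomere genes, the median change of all genes was 0.97 between D10 and D15, where 30.7% of genes passed higher and 0.993% lower, and −0.92 between D15 and D21, where 18.6% passed lower. On that scale Slc8a1 moved up by about as much as the median gene (1.04 ± 0.25, adjusted p = 0.0054) and Jph2 moved down (−0.41 ± 0.12, adjusted p = 0.0093) between D10 and D15. Casq2 (−0.33 ± 0.13, adjusted p = 0.0364), Trdn (−0.25 ± 0.12, adjusted p = 0.070) and Pln (−0.26 ± 0.11, adjusted p = 0.0378) no longer passed. Between D15 and D21, Casq2 (0.41 ± 0.13, adjusted p = 0.0182), Jph2 (0.27 ± 0.12, adjusted p = 0.059) and Trdn (0.11 ± 0.12, adjusted p = 0.43) no longer passed either. Ryr2 moved down between D15 and D21, by less than the median gene (−0.76 ± 0.21, adjusted p = 0.0093). Ttn, within the sarcomere scale, also moved down between D15 and D21 on that scale (−1.12), the only one of the 10 sarcomere genes that passed, and its part in the Ryr2 change was not tested.

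Ratios of 2 transcripts within a heart do not depend on how libraries are scaled. For 4 pairs at each of 3 days, EAM and control hearts were compared by exact two-sided permutation tests, which with 4 against 4 hearts cannot go below p = 0.0286; adjusted over the 12 tests, that value becomes 0.0857, so no ratio could pass. The ratio of pump to brake, Atp2a2 to Pln, was 1.88 to 2.08 in D15 control hearts and 2.003 to 2.60 in D15 EAM hearts (exact permutation p = 0.23). It was 2.13 to 2.37 in D21 control hearts and 1.84 to 2.20 in D21 EAM hearts (exact permutation p = 0.0571), with fold differences of 1.12 at D15 and 0.886 at D21. Ryr2 to Casq2 was higher in every D15 EAM heart, at 2.14 to 3.36 against 1.53 to 2.04 in controls (1.57-fold, exact permutation p = 0.0286). At D21 the order was the other way, with EAM hearts at 1.19 to 1.73 and controls at 1.67 to 2.29, overlapping slightly (exact permutation p = 0.0571). Slc8a1 to Atp2a2, exchanger to pump, was 0.0233 to 0.0267 in D15 controls and 0.0273 to 0.0715 in D15 EAM hearts (1.66-fold, exact permutation p = 0.0286). Ryr2 to Fkbp1b fell from 1459 to 2228 in D15 controls to 94.7 to 349 in D15 EAM hearts, and was also without overlap at D21. At D10 the ranges of EAM and control hearts overlapped for all 4 ratios.

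**Figure D5:**
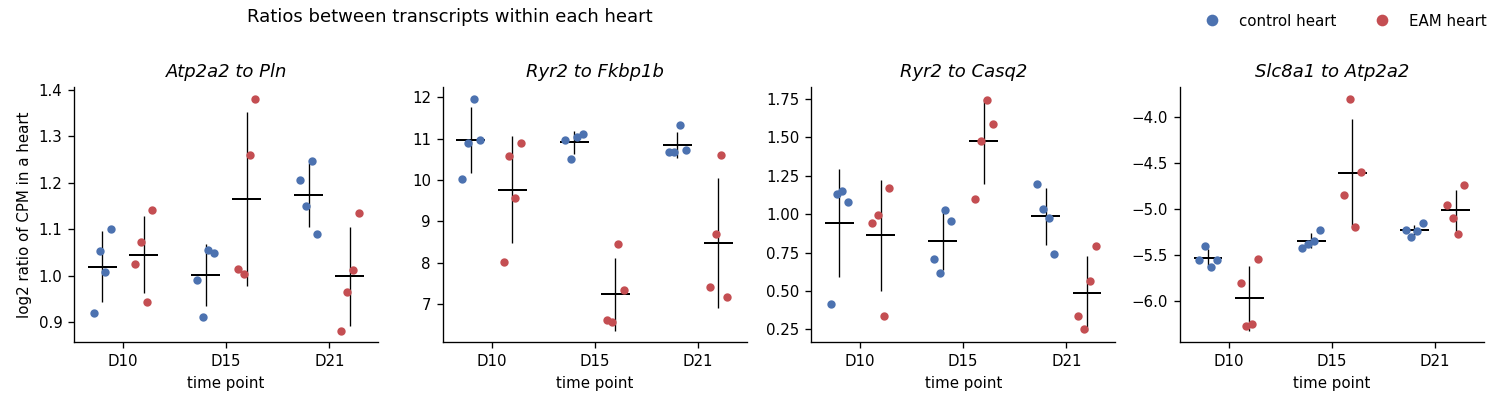
The log2 ratio of CPM between 2 transcripts in each heart, for 4 pairs. Each point is 1 heart, horizontal lines are group means and vertical lines are SD (n = 4). At D15 EAM and control hearts were apart for 3 pairs and overlapped for Atp2a2 to Pln.

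The wider calcium pathway was described by 7 lists with 66 listed genes, of which 63 were matched. At D15, 14 of the 62 tested rose and 27 fell, where 33.3% of all genes passed higher and 31.2% lower, and their median change was −0.31. With so many genes passing in each direction, the counts within single lists are descriptions. Leucocyte markers rose as well, with a median log2 change of 3.59 at D15 and 2.62 at D21. The part of leucocytes or other cell types in the rises of wider pathway genes given below was not tested. Among partners and relatives of the release channel, 3 of 9 rose and 2 fell. Ryr1, the skeletal muscle ryanodine receptor, rose from 0.236 to 0.412 CPM in control hearts to 2.32 to 3.397 CPM in EAM hearts (3.12 ± 0.22, adjusted p = 2.38e-06). The skeletal muscle marker Tnnt3 also rose, from 0.365 to 0.826 CPM in control hearts to 0.97 to 2.28 CPM in EAM hearts. The other skeletal muscle marker tested had a fitted change of −0.29 and did not pass. The part of skeletal muscle signal in the Ryr1 value was not tested. Sri, which encodes the calcium sensor sorcin, rose by 0.75 ± 0.09 and S100a1, a calcium-binding activator of channel and pump, fell by 1.12 ± 0.13 on the log2 scale. Of 6 tested pump regulators and relatives, Srl and Casq1, both of the store lumen, fell (−1.43 ± 0.17 and −1.50 ± 0.16) and Hax1 rose. In the list of dyad and store structure 5 of 7 fell, led by Tmem38a, the counter-ion channel TRIC-A of the store (−1.88 ± 0.20), and Cmya5 (−1.62 ± 0.40). The exception was Bin1, the membrane-bending protein amphiphysin 2, which rose by 1.33 ± 0.10.

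Among 7 tested channels and pumps of the surface membrane, 3 fell, all subunits of the L-type channel (Cacna1c, Cacnb2 and Cacna2d1, with Cacna1c at −0.84 ± 0.18), and 1 rose, the calcium pump gene Atp2b1. Kinases, phosphatases and their regulators fell in 10 of 17, including the CaMKII genes Camk2b (−2.03 ± 0.26) and Camk2a (−1.51 ± 0.20), and 1, the calcineurin regulator Rcan1, rose. In the list of IP3 receptors and store-operated entry none fell and 4 of 8 rose, namely Stim2, Orai1, Orai2 and Itpr3. Orai2, a pore subunit of store-operated entry, went from 3.84 to 5.18 CPM in control hearts to 29.9 to 37.9 CPM in EAM hearts (2.93 ± 0.12). The mitochondrial list split, with 5 of 8 lower and 3 higher. Mcu, the pore of the mitochondrial uniporter, fell (−0.78 ± 0.06), whereas Mcub, its dominant-negative relative, had the largest fitted increase of all 62 genes, from 3.31 to 4.22 CPM in control hearts to 25.3 to 39.5 CPM in EAM hearts (3.22 ± 0.16). Slc8b1, the mitochondrial sodium-calcium exchanger, rose by 1.38 ± 0.13. Scaled to the sarcomere genes, 38 of the 62 were higher and 2 lower at D15, against 14 and 27 under TMM, and 72.7% of all genes were higher and 2.17% lower.

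At D21, 1 of 61 tested genes of the wider pathway rose and 10 fell, where 4.94% of all genes passed higher and 3.43% lower. Mcub stayed higher, with EAM hearts at 7.88 to 32.8 CPM and controls at 2.84 to 5.68 CPM (2.39 ± 0.46, adjusted p = 0.0089). Sln, the SERCA inhibitor sarcolipin of atrial muscle, had 136 to 221 CPM in control hearts and 0.0985 to 2.27 CPM in EAM hearts (−7.95 ± 0.65, adjusted p = 0.0012). Sln is itself one of the 5 atrial markers and moved with the other 4. Atp2a1 (−4.27 ± 0.46), Ryr3 (−2.49 ± 0.37), Casq1 (−1.23 ± 0.23) and Pde3a (−1.07 ± 0.21) also fell, and the part of the low atrial signal in them was not tested. With the replicate number as a block 7 of these genes passed, and leaving out single hearts gave from 0 (without D21 control heart 1, 2 or 3) to 31 (without D21 EAM heart 3). The numbers were 2 without control heart 4, 1 without EAM heart 1 or 2, and 7 without EAM heart 4. At D10 none of 61 passed, and 9 did at an unadjusted p under 0.05, against 15.2% of all genes.

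The genes whose levels across the 24 hearts were most like those of 2 of the genes were sought by the mean absolute difference of log2(CPM + 1), each gene centred on the mean of the 12 control hearts, among 10169 genes. For Ryr2 the closest were Speg (0.0993), Dsp (0.104), Myo18b (0.119) and Rbm20 (0.130), against a median of 0.488 over all genes. The exon lengths of these 4 were 6.79 to 12.7 kilobases, and Ryr2 has 28.8. Because 1 further close gene is not reported here, nothing about transcript length is drawn from these 4. For Atp2a2 they were Pdha1 (0.0554), Ogdh (0.0588), Cs (0.0603), Ndufs1 (0.0643) and Pcca (0.0676), against a median of 0.403, all genes of mitochondrial metabolism. Among the 10 calcium handling genes themselves, Casq2 and Jph2 were the closest pair (0.0743), Trdn and Pln followed (0.0874), and Fkbp1b stood at 0.83 to 1.19 from each of the others. These distances compare genes measured in the same 24 libraries, whose hearts differ in depth and cell makeup. The part of cell makeup in the likeness was not tested.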

How the data were processed

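RNA from a portion of each of 24 mouse hearts was made into directional, paired-end libraries by the authors. The deposited values are raw read counts per gene, which the authors made by aligning reads with HISAT2 (version 2.0.4), processing them with Picard and counting them with featureCounts against GRCm38 Ensembl genes; its strand setting was not given in the sources used here. Values in the full table and in the single files did not differ (0 cells). The 92 spike-in features held 0 reads and were left out.

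Counts were tested within each day (8 hearts) with the quasi-likelihood test of edgeR 4.0.16 (R 4.3.3) after TMM normalization, leaving out genes that did not reach 10 reads in 4 or more libraries, with Benjamini-Hochberg adjustment over all genes. Changes between days were tested in a fit of all 24 hearts, and days within the 12 controls in a fit of those. Ratios were tested by exact permutation (scipy 1.17.1). By the study's methods each library is 1 mouse, so p-values measure the spread between hearts. Alternatives were DESeq2 1.42.0, the likelihood ratio test of edgeR, limma-voom (limma 3.58.1), RLE and total-count scaling, scaling to 10 sarcomere genes, no filter, shared or pooled fits, single hearts left out, a replicate block and, added after the data were seen, the earlier form of the quasi-likelihood test and the block and single hearts left out under sarcomere scaling. The fits were checked on simulated counts.

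The 10 genes, the pathway and marker lists and the sarcomere genes were chosen with earlier results of these data known. Named were all 10 genes, Ptprc, for each day up to 5 wider pathway genes with the largest fitted increase and up to 5 with the largest decrease among those past the limit without overlap, and for Ryr2 and Atp2a2 the 5 most similar genes among those averaging 10 CPM or more (1 of those for Ryr2 is not reported here); other pathway and marker genes were named after their values were seen. Symbols were matched for 40254 of 41388 genes; Strit1, Arln and Erln were not matched. Replicate numbers are in the labels, with no stated pairing. Deviations of same-numbered hearts correlated across genes at 0.107 to 0.316 at D21, all above 0.1, but not at D10 (−0.10 to 0.43) or D15 (−0.11 to 0.04), so the block is given beside D21 results where it changed a count by over 1.5 times.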

Additional observations from a re-analysis of the deposited data

Results flagged for a closer look

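Among 60 groups of 4 hearts (10 genes in 6 groups), 2 held a heart whose distance from the nearest other heart was large for the range of its group; chance gives about 1 in 20 such groups. Slc8a1 in D15 EAM heart 1 was 140 CPM, below 175 to 181 CPM in the other 3. Fkbp1b in D10 EAM heart 1 was 3.71 CPM, above 1.02 to 1.45 CPM in the other 3, in the heart that also had the most leucocyte markers of its group (2910 CPM).

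The EAM effect differed between days for 4 genes by the quasi-likelihood test of edgeR in the fit of all 24 hearts. From D10 to D15 it changed by −1.42 for Jph2 (adjusted p = 0.0023), −1.34 for Casq2 (adjusted p = 0.0028), −1.24 for Trdn (adjusted p = 0.0018) and −1.23 for Pln (adjusted p = 0.0053) on the log2 scale. From D15 to D21 it changed by 1.28 for Jph2 (adjusted p = 0.0060), 1.40 for Casq2 (adjusted p = 0.0033) and 1.06 for Trdn (adjusted p = 0.0035). The D15 hearts enter both differences, and the sarcomere genes moved alike, with medians of −1.04 and 1.10. Relative to the sarcomere genes, the change from D10 to D15 was −0.41 for Jph2 (adjusted p = 0.0093). It was −0.33 for Casq2 (adjusted p = 0.0364), −0.25 for Trdn (adjusted p = 0.070) and −0.26 for Pln (adjusted p = 0.0378). From D15 to D21 these genes did not pass on that scale. The change was 0.27 for Jph2 (adjusted p = 0.059), 0.41 for Casq2 (adjusted p = 0.0182) and 0.11 for Trdn (adjusted p = 0.43). What set the shared shift was not tested.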

How the results depend on the processing

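For the 10 genes, directions turned only under scaling to the sarcomere genes, among all alternatives run. There the log2 change was 0.062 for Atp2a2, 0.0355 for Pln and 0.0541 for Trdn at D10, 0.20 for Ryr2, 0.70 for Slc8a1 and 0.53 for Camk2d at D15, and 0.0531 for Slc8a1 at D21, because the scale itself fell in EAM hearts, which moved the all-gene median to 0.28, 1.26 and 0.33 at D10, D15 and D21. At D15 this scaling left 5 genes past the limit (1 with a 2-fold change) against 9 and 6, and 3 with the replicate block added. Single hearts left out gave 8 to 10 genes (6 to 8 with 2-fold) under TMM and 2 to 6 under sarcomere scaling; the 6 was reached without EAM heart 3, and 2 or 3 without EAM heart 4 or any control heart. At D10 all 12 controls together passed 2 genes. At D21, where none passed, DESeq2 and the likelihood ratio test passed 2 (1 with 2-fold), all 12 controls 5 (1), all 24 hearts in 1 fit 1 (1), a limit of 0.05 3 (1), and single hearts left out 0 to 2, also under sarcomere scaling. Between D10 and D15, 4 genes passed, against 2 with sarcomere scaling, 7 with DESeq2, 8 at a limit of 0.05 and 3 to 8 with single hearts left out. Between D15 and D21, 3 passed, against 1 with sarcomere scaling, 1 with the replicate block, 5 at a limit of 0.05 and 1 to 5 with single hearts left out. Between control hearts at D21 and D10, 1 passed at a limit of 0.05. In the wider pathway at D10, where none passed, DESeq2 and the likelihood ratio test passed 1 and all 12 controls 9. At D21, 11 passed, against 28 with DESeq2, 23 with the likelihood ratio test, 5 with limma-voom, 4 with sarcomere scaling, 7 with the replicate block, 39 with all 12 controls, 31 with all 24 hearts in 1 fit, 31 at a limit of 0.05 and 0 to 31 with single hearts left out. Ratios without overlap numbered 0 at D10 (0 to 1 with single hearts left out, 1 with the same sign in all same-numbered hearts under the replicate block), 3 at D15 and 1 at D21 (1 to 3). The block changed no other count by over 1.5 times. The cause of these differences was not tested beyond the shift of the scale. Fkbp1b, at 9 to 200 reads, is the gene most limited by depth.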
